A study of Homo sapiens with 16 samples.

Results

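The Notch receptors, ligands and targets were followed as ATAC-seq peaks, intervals of open chromatin, at 9 genes: the receptors NOTCH1, NOTCH2 and NOTCH3, the ligands JAG1 and JAG2, the glycosyltransferase LFNG, the coactivator MAML2 and the targets HES1 and HEY1. A peak belonged to a gene when the deposited annotation gave that gene's Ensembl identifier as the nearest start, and this rule gave 30 of 164980 peaks. It gave MAML2 10 peaks, NOTCH2 5, LFNG 4, NOTCH3 3, HES1 3, JAG1 2, HEY1 2, JAG2 1 and NOTCH1 0, because the annotation gave the peaks over the starts of NOTCH1, JAG1, HEY1 and MAML2, and the one beside the start of JAG2, to neighbouring identifiers. A further 58 peaks inside these genes were therefore added, a choice made after that gap was seen, and both sets are given below, the 30 peaks of the rule and all 88.

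Cal33 and SAS are HPV-negative head and neck squamous carcinoma cell lines, and the study asked how α7 integrin, a laminin receptor encoded by ITGA7, bears on chromatin accessibility. Cells of each line were transfected with control siRNA (siControl) or with siRNA that targets ITGA7 (siITGA7), embedded 24 h later in a 3D matrix rich in laminin, and taken for nuclei after 48 h, so that all 16 libraries share transfection and matrix. The 4 groups held 4 biological replicates each. An siRNA acts on the transcript, so accessibility at ITGA7 does not check the knockdown.

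Notch receptors are cleaved after binding a Jagged or Delta ligand on a neighbouring cell, and the freed intracellular domain joins the DNA-binding protein RBPJ and a Mastermind coactivator to switch on genes such as HES1 and HEY1. Fringe enzymes such as LFNG add sugars to the receptor and change which ligands it answers. In squamous epithelium Notch signalling is known for driving cells out of division and into differentiation, and NOTCH1 is often mutated in head and neck squamous carcinoma.

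Total counts in peaks ran from 3980563 to 8367079 in Cal33 siControl, from 8646532 to 13285086 in Cal33 siITGA7, from 1766033 to 4870187 in SAS siControl and from 758590 to 1867047 in SAS siITGA7. The share of counts in promoter peaks was 40.4% to 47.1% and 40.3% to 42.1% in the Cal33 groups, and 33.1% to 34.1% and 29.7% to 30.6% in the SAS groups, in the same order. Of 8 squamous epithelial marker genes 6 had a promoter or start peak, with a summed level of 384 to 436 CPM (each library's counts scaled to a common total) in Cal33 siControl, 450.0 to 509 in Cal33 siITGA7, 195 to 218 in SAS siControl and 198 to 223 in SAS siITGA7. Of 8 fibroblast markers 4 had one (33.8 to 58.0 CPM over all libraries), and of 8 endothelial and blood markers 2 had one, with 10.1 to 11.7 CPM in Cal33 siControl, 6.82 to 7.53 in Cal33 siITGA7, 1.95 to 4.86 in SAS siControl and 3.3 to 6.59 in SAS siITGA7. The Cal33 groups thus did not overlap for the squamous sum, which was higher in siITGA7, nor for the endothelial and blood sum, which was lower. In the Cal33 means the start peaks of KRT5 (191 to 233 CPM) and SFN (137 to 160) rose most. Peaks of KRT14 and EPCAM also rose, while those of CDH1 (9.66 to 7.27) and DSG3 (4.39 to 4.14) fell. Of the squamous promoter and start peaks 0 were called in either line. No promoter or start peak was matched to PECAM1, KDR, TEK, PTPRC, CD3E or SPI1, nor to the squamous genes TP63 and KRT6A. After siITGA7 the CDH5 promoter peak fell in Cal33 from 9.37 to 6.28 CPM (log2 change -0.64, edgeR adjusted p = 0.00611), while an intron peak of CDH5 rose (0.82, adjusted p = 6.27e-05). Away from promoters and starts, marker peaks of CDH1 (0.45), SFN (0.64), PTPRC (0.66) and TP63 (1.04) rose and another of TP63 (-0.72) fell in Cal33, and that of SFN rose in SAS (0.75). The part of these marker levels in the Notch results was not tested.

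The promoters of the genes whose start peaks the results turn on are shown first, as 250 bases before the RefSeq start (GRCh38.p14), read in the direction of the gene. Capitals mark matches to TGGGAA, the core that RBPJ binds, searched on both strands together with TGANTCA (AP-1) and GGAATG (TEAD), which had no match in these sequences. The HES1 window is chr3:194135898-194136147 on the plus strand, the NOTCH1 window chr9:136546049-136546298 on the minus strand and the JAG1 window chr20:10674000-10674249 on the minus strand, and each lies wholly inside the start peak of its gene.
HES1: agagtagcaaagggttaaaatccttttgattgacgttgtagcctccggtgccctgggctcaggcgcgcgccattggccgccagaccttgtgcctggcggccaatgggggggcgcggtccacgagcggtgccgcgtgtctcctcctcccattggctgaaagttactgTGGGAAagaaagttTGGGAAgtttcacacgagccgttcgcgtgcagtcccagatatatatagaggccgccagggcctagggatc
NOTCH1: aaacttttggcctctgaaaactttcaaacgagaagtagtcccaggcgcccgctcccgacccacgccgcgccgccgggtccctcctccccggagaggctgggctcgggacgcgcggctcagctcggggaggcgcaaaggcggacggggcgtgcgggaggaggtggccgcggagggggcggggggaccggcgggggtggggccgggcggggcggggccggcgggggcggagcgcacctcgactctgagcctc
JAG1: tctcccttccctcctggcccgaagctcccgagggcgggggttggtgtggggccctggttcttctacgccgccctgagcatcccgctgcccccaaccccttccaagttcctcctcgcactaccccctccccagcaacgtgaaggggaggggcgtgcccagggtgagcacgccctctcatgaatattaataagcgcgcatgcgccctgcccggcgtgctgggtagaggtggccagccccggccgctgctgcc
The HES1 window held 2 RBPJ cores, beginning 84 and 70 bases before the start, both in the direction of the gene. Over all 35116 RefSeq promoter windows of this length, 20.8% held at least 1 such core and 2.9% held 2 or more, while 6.57% held the AP-1 letters and 11.9% the TEAD letters. Of the other members with a RefSeq window, LFNG had 1 core, 248 bases before the second of its 2 starts, and NOTCH2, NOTCH3, JAG2 and MAML2 had none. GC content was 76.0% in the NOTCH1, 68.4% in the JAG1 and 59.2% in the HES1 window, against a median of 58.0% over all windows.

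Among the peaks at or nearest the starts, HES1 had the highest level in every group when the CPM of the library total was divided by the peak's length in kb. Its start peak had 129 ± 20.7 CPM per kb (SD, n = 4) in Cal33 siControl and 51.3 ± 4.36 in SAS siControl, and every library lay above the next gene in order. In Cal33 siControl NOTCH1 (49.9 ± 8.68), HEY1 (40.1 ± 9.75), LFNG (36.4 ± 4.06) and JAG1 (33.5 ± 3.82) followed, and neighbours in this order overlapped. JAG2 (12.5 ± 3.22), MAML2 (11.7 ± 1.31) and NOTCH2 (7.38 ± 1.67) were lowest, with JAG2 and MAML2 overlapping. In SAS siControl JAG2 stood second (28.1 ± 3.61), overlapping with JAG1 (27.4 ± 2.70), and NOTCH1 (19.6 ± 3.44) overlapped with both LFNG (21.1 ± 3.14) and HEY1 (14.4 ± 2.45). The LFNG value is that of its promoter-class peak nearest a RefSeq start, whose centre lies 2089 bases after the second of the gene's 2 starts. Its other promoter-class peak, chr7:2522124-2524662, had 133 ± 19.3 CPM per kb in Cal33 siControl and 131 ± 7.0 in Cal33 siITGA7, means above those of HES1 (129 and 127) with overlapping libraries, so the order in Cal33 depends on which LFNG peak is taken. In SAS that peak lay below HES1 in all libraries, at 22.5 ± 2.79 and 23.7 ± 2.04. The order in SAS depends on the division by length. Undivided, the JAG1 start in SAS siControl replicates 1 to 4 gave 102, 88.9, 113 and 104 CPM. The HES1 start gave 91.2, 82.1, 97.5 and 99.7 CPM there, and in SAS siITGA7 the order of the 2 genes differed between libraries. No peak lay over the RefSeq start of NOTCH3, whose main peak was in an intron, and none lay over either start of LFNG. NOTCH2 shares near-identical sequence with its NOTCH2NL copies, so that its values are uncertain, and an open site in more cells cannot be told apart from a more open site per cell in any of these values.

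**Figure D1:**
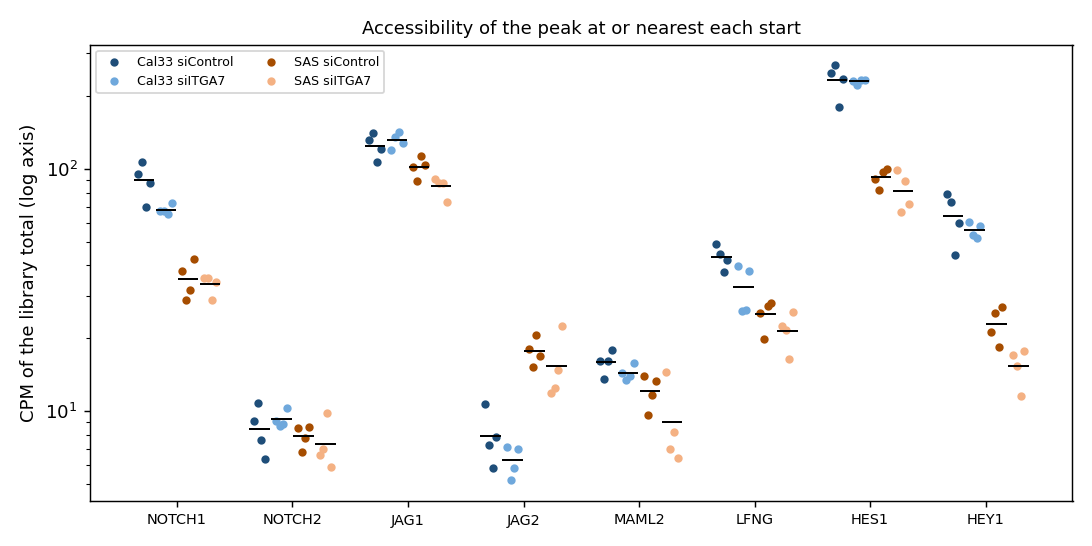
CPM of the library total (log axis) in the peak at or nearest the start of 8 genes, 1 point per library and a line at each group mean. In Cal33 HES1 is highest and NOTCH2, JAG2 and MAML2 are lowest. In SAS siControl JAG1 lies above HES1 in each library. The SAS points of NOTCH1, HES1 and HEY1 lie below the Cal33 points.

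In Cal33, siITGA7 was followed by more open chromatin inside JAG1, the ligand that neighbouring cells read through NOTCH1, while the peak over its start did not pass the test. Of 6 JAG1 peaks tested 4 rose and 0 fell, by 1.44-fold to 1.75-fold. By edgeR's quasi-likelihood test with Benjamini-Hochberg adjustment over all 75230 tested peaks, 4.52% of all peaks and 5.19% of all intron peaks rose in this comparison. The intron peak at chr20:10659915-10660975, centred 13554 bases inside the gene, was the 1 JAG1 peak of the rule that rose. Its Cal33 siControl replicates 1 to 4 gave 4.34, 4.59, 4.64 and 4.41 CPM (normalized within the line by TMM, a scaling on the bulk of the peaks), and the siITGA7 replicates gave 8.24, 8.29, 7.02 and 7.99. All siITGA7 libraries lay above all siControl libraries, and the log2 change was 0.81 ± 0.17 (SE, adjusted p = 0.00276).

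The other JAG1 peaks that rose came from the added set. At chr20:10666972-10668074, in an intron 6476 bases inside, the siControl libraries gave 13.0, 16.6, 17.2 and 16.9 CPM and the siITGA7 libraries 21.5, 23.0, 25.8 and 21.9, a log2 change of 0.53 ± 0.12 (SE, edgeR adjusted p = 0.00583). At chr20:10665044-10666218, 8368 bases inside, 11.7, 8.03, 12.5 and 10.9 CPM stood against 15.4, 15.4, 19.0 and 16.9, a log2 change of 0.58 ± 0.14 (edgeR adjusted p = 0.0061). At the far end of the gene, chr20:10636299-10637679, 10.1, 10.6, 6.85 and 10.9 CPM stood against 12.9, 15.6, 13.8 and 14.2, a log2 change of 0.59 ± 0.15 (edgeR adjusted p = 0.0102). The groups did not overlap at any of these 3 peaks. In Cal33 they failed to overlap at 10 of the 59 tested member peaks and at 14.6% of all tested peaks. The peaks 13554 and 6476 bases inside kept their call when any 1 of the 8 Cal33 libraries was left out, and so did the one 8368 bases inside. The end peak lost it without Cal33 siITGA7 replicate 2 (adjusted p = 0.051) and after thinning to equal depth (0.0877). The peak 8368 bases inside had an adjusted p of 0.0507 in the 5 Cal33 libraries with 1 sequencing run each. These are called the libraries of 1 sequencing run below, and the other Cal33 libraries had 2 runs. They are 2 siControl and 3 siITGA7 libraries, so that fit held fewer libraries. The number of runs does not show whether they shared a run.

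Over the JAG1 start, chr20:10671421-10675145, the siControl libraries gave 146, 160, 104 and 127 CPM and the siITGA7 libraries 117, 139, 147 and 131. The groups overlapped throughout, with a log2 change of -0.0026 ± 0.14 (SE, edgeR adjusted p = 0.994). The remaining tested peak, chr20:10654174-10655200 in an intron, had 29.0 ± 2.49 CPM in siControl and 25.0 ± 2.22 in siITGA7 (SD, n = 4; log2 change -0.21, edgeR adjusted p = 0.264).

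In SAS, the 4 JAG1 peaks that passed the filter on low counts included no call. The peak 8368 bases inside had 14.3, 9.55, 9.25 and 6.07 CPM in siControl and 10.5, 12.2, 20.0 and 13.4 in siITGA7, overlapping groups with a log2 change of 0.54 ± 0.26 (SE, edgeR adjusted p = 0.212). The start peak had 131 ± 12.5 CPM in siControl and 113 ± 11.1 in siITGA7 (log2 change -0.25 ± 0.10, edgeR adjusted p = 0.11). Its adjusted p was 0.0376 without SAS siControl replicate 2, 0.0338 with the deposited library factors and 0.00144 with no low-count filter (log2 change -0.45). With promoter and other peaks normalized apart, the adjusted p was 0.0355. The annotation did not class this peak as a promoter, so that fit scaled it with the other peaks. After thinning the log2 change was 0.014 (adjusted p = 0.979). None of the 4 JAG1 rises in Cal33 differed from the SAS change by the test of that difference (edgeR adjusted p = 0.495 to 0.892), and at 2 of them SAS had too few counts for a test within the line.

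**Figure D2:**
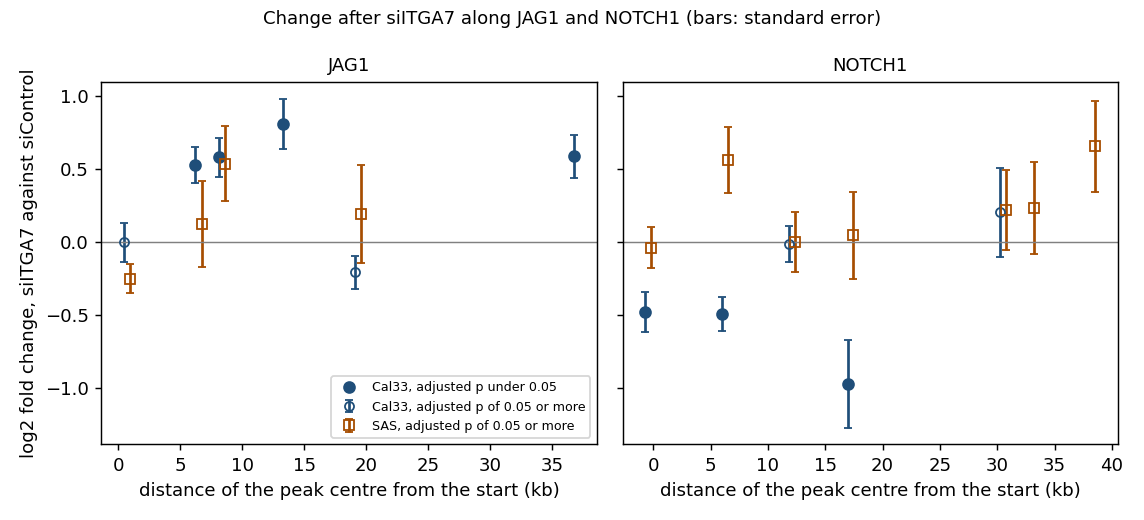
Log2 fold change after siITGA7 (vertical axis, bars are standard errors) against distance of the peak centre from the gene start in kb, for the tested peaks of JAG1 and NOTCH1 in Cal33 (circles) and SAS (squares). Filled circles passed the test: 4 JAG1 peaks inside the gene lie above 0, and the NOTCH1 start peak with 2 intron peaks lies below 0.

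NOTCH1, the receptor, moved the other way in Cal33: of 5 tested peaks 3 fell and 0 rose, all from the added set, since the rule gave NOTCH1 none. In the same comparison 4.67% of all peaks, 9.93% of promoter peaks and 3.23% of intron peaks fell. The intron peak at chr9:136539146-136540419, 6265 bases inside the gene, gave 30.5, 27.5, 31.2 and 28.2 CPM in siControl and 19.9, 20.5, 19.9 and 23.8 in siITGA7. The groups did not overlap, the log2 change was -0.49 ± 0.11 (SE, edgeR adjusted p = 0.00558), and the call was kept when any 1 Cal33 library was left out.

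Over the NOTCH1 start, chr9:136545612-136547416, the siControl libraries gave 106, 122, 67.6 and 92.8 CPM and the siITGA7 libraries 65.5, 69.0, 67.7 and 74.4. The groups overlapped, since siControl replicate 3 lay within the siITGA7 range and the other 3 siControl libraries lay above it. The log2 change was -0.48 ± 0.14 (SE, edgeR adjusted p = 0.0245). The share of counts in promoter peaks was 46.4%, 47.1%, 40.4% and 43.5% in the siControl replicates 1 to 4, the same order of libraries as at this peak, and its part in the change was not tested. With promoter peaks normalized and fitted apart from the others, the log2 change was -0.33 (edgeR adjusted p = 0.0158). Leaving out siControl replicate 1 or 2, or any of the siITGA7 replicates 1 to 3, ended the call (adjusted p = 0.0669 to 0.104). Over all fits with 1 library left out, the log2 change ran from -0.62 to -0.36 and the adjusted p from 9.14e-07 to 0.104. The call also ended with the replicate number as a block (adjusted p = 0.0527). In the 5 libraries with 1 sequencing run each it ended too (log2 change -0.24, adjusted p = 0.383).

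The third NOTCH1 peak that fell, chr9:136528491-136529180 in an intron, was low, with 9 to 19 counts per siControl library and 9 to 15 per siITGA7 library. It gave 2.57, 2.58, 2.205 and 1.59 CPM against 1.103, 1.42, 0.943 and 1.05, groups that did not overlap (log2 change -0.97 ± 0.30, SE, edgeR adjusted p = 0.0362). Leaving out 1 library ended this call in 6 of 8 cases, namely siControl replicates 1 and 2 and each siITGA7 replicate (adjusted p = 0.0559 to 0.121), as did the replicate block (adjusted p = 0.0554), total counts as library size (0.0595) and the 5 libraries of 1 sequencing run (0.29). In SAS none of the 7 tested NOTCH1 peaks was called.

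The NOTCH1 intron peak 6265 bases inside was the 1 member peak at which the change differed between the lines. In SAS it gave 18.3, 14.0, 11.9 and 8.22 CPM in siControl and 26.2, 16.9, 15.6 and 19.8 in siITGA7, overlapping groups with a log2 change of 0.56 ± 0.23 (SE, edgeR adjusted p = 0.12, and 0.0298 without siControl replicate 1). The Cal33 change minus the SAS change, in 1 fit of all 16 libraries, was -0.95 ± 0.26 (log2, SE, edgeR adjusted p = 0.0465), where 0.761% of 94918 peaks were called, 0.27% with the change lower in Cal33 and 0.491% with it higher. Of the 22 tested peaks of the rule edgeR called 0, with 4 at an unadjusted p under 0.05 and 0 calls by DESeq2 or limma-voom. This call was lost in 12 of 16 fits with 1 library left out (adjusted p up to 0.197, without SAS siControl replicate 4). It was also lost with limma-voom (adjusted p = 0.0574), with no low-count filter (0.0969) and after thinning (0.46). For the NOTCH1 start peak the difference was -0.34 (adjusted p = 0.497). The next smallest p belonged to the MAML2 intron peak at chr11:96062171-96062529 (-1.68 ± 0.52, edgeR adjusted p = 0.0971, and 0.0443 without Cal33 siITGA7 replicate 1) and to a peak downstream of HEY1, chr8:79759934-79761169 (-1.64 ± 0.58, adjusted p = 0.166), which had 3 to 7 counts per SAS library.

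**Figure D3:**
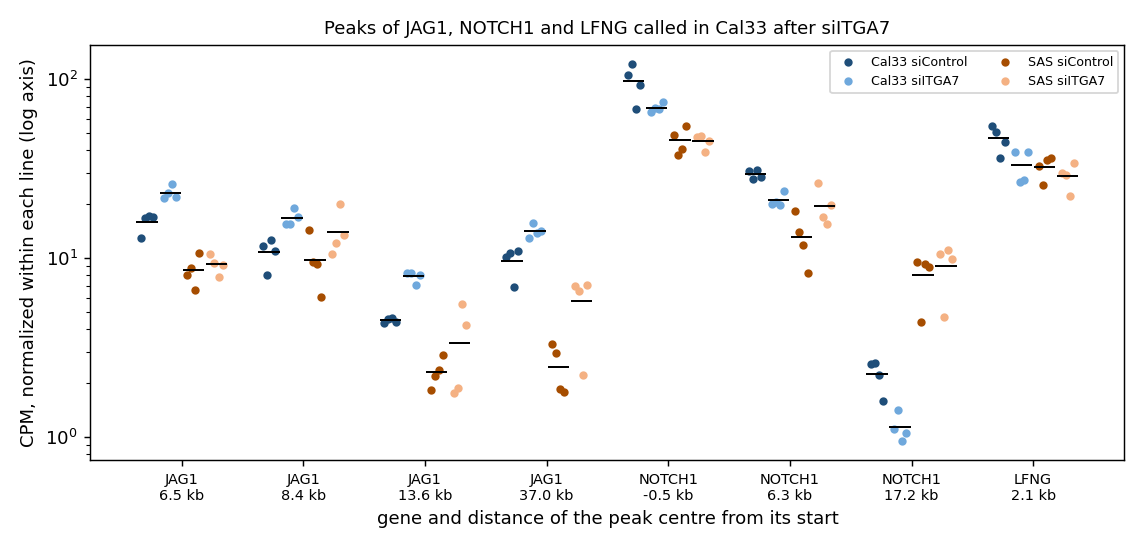
CPM normalized within each line (log axis) in every library at the JAG1, NOTCH1 and LFNG peaks called in Cal33, with a line at each group mean. The distance of the peak centre from the nearest RefSeq start of the gene is given in kb below. The siITGA7 points of Cal33 lie above the siControl points at the 4 JAG1 peaks and below them at 2 NOTCH1 introns, while at the NOTCH1 start and at LFNG the Cal33 groups overlap.

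LFNG, the Fringe enzyme, had 1 of 4 tested peaks called in Cal33, where 9.19% of all tested peaks were called and 9.93% of promoter peaks fell. This was the promoter-class peak at chr7:2519357-2520548. Its siControl libraries gave 54.6, 50.8, 36.4 and 44.6 CPM and the siITGA7 libraries 38.9, 26.7, 27.2 and 38.9, a log2 change of -0.48 ± 0.14 (SE, edgeR adjusted p = 0.0223). The groups overlapped, since siControl replicate 3 lay below 2 siITGA7 libraries. The peak lost its call when siControl replicate 1, siITGA7 replicate 2 or siITGA7 replicate 3 was left out (adjusted p = 0.107 to 0.126). Over all fits with 1 library left out, the log2 change ran from -0.60 to -0.39 and the adjusted p from 4.05e-05 to 0.126. The call was also lost in the libraries of 1 sequencing run (adjusted p = 0.13). It was kept with promoter peaks normalized apart (log2 change -0.35, adjusted p = 0.0377). The larger LFNG peak, chr7:2522124-2524662, had 365 ± 75.9 CPM in siControl and 338 ± 25.4 in siITGA7 (SD, n = 4; log2 change -0.11, edgeR adjusted p = 0.702).

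MAML2, which bridges the Notch complex to the transcription machinery, is a long gene with 36 peaks. Of these, 24 were tested in Cal33 and 3 were called, against 9.19% of all tested peaks. The MAML2 start peak, chr11:96342839-96344199, had 17.0 ± 1.69 CPM in siControl and 14.7 ± 1.14 in siITGA7 (log2 change -0.22, edgeR adjusted p = 0.274). The peak at the gene's far end, chr11:95977627-95978082, rose (log2 change 1.11 ± 0.36, adjusted p = 0.0467) on 3 to 8 counts per siControl library, and lost its call in 7 of 8 fits with 1 library left out and with the replicate block (adjusted p = 0.0637). Intron peaks at chr11:96062171-96062529 (-1.13 ± 0.34, adjusted p = 0.0342) and chr11:96314143-96314934 (-0.69 ± 0.21, adjusted p = 0.0322) fell, and lost their calls in 5 and 3 of 8 such fits and with total counts as library size (adjusted p = 0.0654 and 0.0925). All 3 are of low count, the largest siControl value being 71 counts, and all 3 came from the added set.

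Neither target gene was called at its start. The HES1 start peak, chr3:194134418-194136224, gave 277, 306, 175 and 248 CPM in Cal33 siControl and 225, 228, 242 and 239 in siITGA7. The siControl libraries lay on both sides of the siITGA7 range (log2 change -0.10 ± 0.15, SE, edgeR adjusted p = 0.711). In SAS it gave 117, 106, 125 and 128 CPM against 131, 89.0, 120 and 94.8 (log2 change -0.19 ± 0.10, adjusted p = 0.271). HEY1, at chr8:79767376-79768971, gave 87.7, 83.5, 42.7 and 63.0 CPM against 59.2, 54.9, 54.1 and 59.4 in Cal33 (log2 change -0.27 ± 0.15, adjusted p = 0.264), and its adjusted p was 0.000637 without siControl replicate 3, which was the lowest library. In SAS HEY1 gave 27.1, 33.1, 23.8 and 34.7 CPM against 22.7, 20.6, 15.6 and 23.3, groups that did not overlap (log2 change -0.48 ± 0.19, adjusted p = 0.104), and the adjusted p was 0.0345 without siControl replicate 3. Groups failed to overlap at 11.6% of tested SAS peaks and at 14.6% of tested Cal33 peaks.

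The remaining receptors and the second ligand were not called in either line, but few of their peaks could be tested in SAS. For NOTCH2, NOTCH3 and JAG2, 7, 4 and 3 peaks were tested in Cal33 and 1, 1 and 2 in SAS. Of all tested peaks 9.19% were called in Cal33 and 7.03% in SAS. The values that follow are from Cal33. NOTCH2 had 9.15 ± 2.58 CPM over its start, chr1:120068691-120069839, in Cal33 siControl and 9.41 ± 0.823 in siITGA7 (log2 change 0.09, edgeR adjusted p = 0.77). NOTCH3 had 114, 144, 62.8 and 97.8 CPM in its main intron peak, chr19:15195146-15196523, against 67.7, 89.6, 89.8 and 81.9, overlapping groups (log2 change -0.34 ± 0.16, adjusted p = 0.185). JAG2 had 8.55 ± 2.55 CPM in its promoter peak, chr14:105168783-105169414, against 6.39 ± 0.847 (log2 change -0.38 ± 0.18, adjusted p = 0.184), and its adjusted p was 0.0115 without siControl replicate 3.

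Counted over the list, 2 of the 26 tested peaks of the rule were called in Cal33, 1 higher (JAG1) and 1 lower (LFNG), against 9.19% of all tested peaks, and the median log2 change was 0.04 against -0.01 over all peaks. Over all 59 tested peaks of the 9 genes 11 were called, 5 higher and 6 lower, with a median of -0.01. The count of 11 became 4 without siITGA7 replicate 2 and 5 without siITGA7 replicate 3, and the count of 2 became 4 without siControl replicate 3 and 1 without siITGA7 replicate 2 or 3. In SAS edgeR called 0 of 13 and 0 of 30 tested peaks, against 7.03% of all peaks, with 1 and 8 at an unadjusted p under 0.05, and DESeq2 and limma-voom also called 0. Over the 30 it called 1 when siControl replicate 1 (the NOTCH1 intron), 2 (the JAG1 start) or 3 (the HEY1 start) was left out. The SAS medians were -0.02 and -0.01 against 0.01 over all peaks, and only 30 of the 88 peaks had enough counts in SAS to be tested.

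Between the lines under siControl the members differed at most peaks, as did peaks in general: 53 of 62 tested peaks, and 19 of the 22 of the rule, against 78.2% of all tested peaks. The result depends on the scaling, because the median log2 difference (Cal33 minus SAS) over all peaks was -0.22 with TMM and -0.85 with total counts, a shift of -0.63, so both are given here in that order. With TMM 37 of the 62 peaks were higher in Cal33 and 16 higher in SAS, against 36.0% and 42.2% of all peaks. With total counts 51 were called, against 79.3% of all peaks, 30 higher in Cal33 and 21 in SAS, against 22.9% and 56.5%. DNA copy number and accessibility cannot be told apart in a difference between lines. Under both scalings 30 peaks were called higher in Cal33 and 16 higher in SAS, against 22.9% and 42.2%.

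NOTCH1 was divided along its length. In the CPM of the library total, its start peak had 90.0 ± 15.7 in Cal33 siControl and 35.3 ± 6.20 in SAS siControl (SD, n = 4), a log2 difference of 1.93 ± 0.13 with TMM and 1.26 ± 0.11 with total counts (SE, edgeR adjusted p = 4.15e-27 and 4.66e-19). The intron peak 6265 bases inside was also higher in Cal33, with 27.6 ± 3.34 against 10.2 ± 3.29 CPM (log2 difference 2.05 and 1.42). From the intron peak at 136528491 to the end of the gene, all 6 tested peaks were higher in SAS under both scalings. At the end, chr9:136493775-136494153, Cal33 had 0.473 ± 0.13 CPM and SAS 3.66 ± 0.531 (log2 difference -2.32 and -2.94, edgeR adjusted p = 6.64e-07 and 1.41e-09). The remaining NOTCH1 peak, at 136533552 between these parts, turned direction with the scaling (0.43 and -0.21). Peaks in general also differed by class. With TMM the median log2 difference was 0.51 over all promoter peaks, -0.36 over intron, -0.59 over exon and -0.74 over transcript-end peaks. With total counts the medians were -0.13, -0.99, -1.22 and -1.36, in the same order.

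JAG1 was higher in Cal33 at all 6 tested peaks under both scalings, although its start turned to -0.13 when only peaks with a mean of at least 50 counts were normalized. Over its start Cal33 had 125 ± 14.2 and SAS 102 ± 10.0 CPM (log2 difference 0.87 and 0.21, edgeR adjusted p = 1.11e-10 and 0.0249), and at the intron peak chr20:10654174-10655200 the values were 27.1 ± 2.18 and 5.52 ± 2.44 (2.91 and 2.28). JAG2 was mixed. Its intron peak nearest the start, chr14:105165228-105168080, had 80.6 ± 10.4 CPM in Cal33 and 50.7 ± 3.72 in SAS (1.27 and 0.61), whereas the promoter peak beside it had 7.93 ± 2.03 and 17.8 ± 2.28 (-0.62 and -1.26), without a call by TMM when Cal33 siControl replicate 3 was left out (adjusted p = 0.0621). The JAG2 peaks at 105145831, 105153529 and 105154200, deeper in the gene, were higher in SAS, the end peak chr14:105145831-105146126 at 0.204 ± 0.157 against 2.27 ± 0.481 CPM (-2.67 and -3.27). The medians of all intron and all transcript-end peaks also lay toward SAS.

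Among the other members the largest difference toward Cal33 was in MAML2, whose peaks also included one of the largest toward SAS. Its intron peak chr11:96272585-96273244 had 6.50 ± 1.43 CPM in Cal33 and 0.791 ± 0.262 in SAS (log2 difference 3.70 and 3.08), and the intron peak chr11:96055025-96055346 had 0.164 ± 0.116 and 2.08 ± 0.661 (-3.10 and -3.70). LFNG, at chr7:2522124-2524662, had 339 ± 49.1 CPM in Cal33 and 57.2 ± 7.08 in SAS (3.15 and 2.48, edgeR adjusted p = 1.26e-44 and 1.19e-42). The NOTCH3 intron peak had 96.6 ± 25.6 and 18.3 ± 3.33 CPM (2.99 and 2.31), the HES1 start 233 ± 37.4 and 92.6 ± 7.88 (1.92 and 1.25) and the HEY1 start 63.9 ± 15.6 and 23.0 ± 3.91 (2.09 and 1.43). The HES1 peak 3365 bases after the start was higher in Cal33 as well, with 21.9 ± 2.45 and 6.55 ± 2.93 CPM (2.23 and 1.59). The peak between them, chr3:194137475-194138057, gave 33.4, 29.1, 29.5 and 36.0 CPM in Cal33 and 38.0, 31.1, 32.4 and 39.5 in SAS. HES1 and HEY1 each had 3 tested peaks, all called higher in Cal33 with TMM but only 2 under both scalings. At the NOTCH2 start the lines had 8.48 ± 1.91 and 7.95 ± 0.859 CPM, and the direction turned with the scaling (0.61 and -0.02). The MAML2 start was called with TMM alone (0.95 and 0.31, adjusted p = 3.24e-08 and 0.062). In NOTCH2 the intron peak chr1:119929704-119930181 was higher in SAS (-1.34 and -1.95), and the peak chr1:119996829-119997376 was called higher in Cal33 with TMM alone (1.37 and 0.76, adjusted p = 0.00256 and 0.11).

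**Figure D4:**
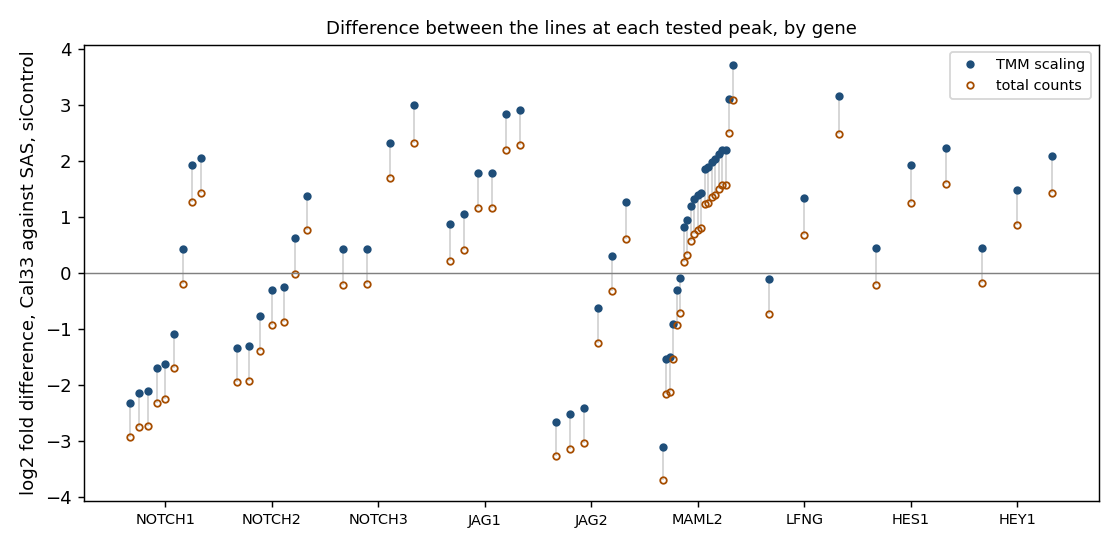
Log2 fold difference between Cal33 and SAS under siControl at each of the 62 tested member peaks, grouped by gene, with TMM (filled) and with total counts (open) joined by a line. NOTCH1, NOTCH2, JAG2 and MAML2 have peaks called in both directions with TMM, and all JAG1 points lie above 0.

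Promoter-class peaks of other matched genes were ranked by how closely their centred log2 CPM followed a member's start peak over the 16 libraries, as a root mean square difference among 11773 peaks. Nearest to NOTCH1 were GPR39 (0.12), S100PBP (0.13) and PKNOX1 (0.14), against a median of 0.70 over all peaks. Nearest to JAG1 were LZTS2 (0.09), RNF138 (0.11) and DLG1 (0.11), against 0.51. Nearest to HES1 were GPR157 (0.10), SP3 (0.12) and SEC14L1 (0.12), against 0.78. All of these values share the same libraries and their depth.

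A list of 47 other genes of the pathway was read in the same way, and 35 of them matched an identifier. Genes without one, SPEN and PSENEN among them, entered only through peaks inside their RefSeq position. In Cal33, of 57 tested peaks by nearest start 3 rose and 5 fell, and of 150 tested peaks with those inside the genes 7 rose and 8 fell, against 4.52% and 4.67% of all peaks. Of all promoter peaks 9.93% fell. The medians of the pathway peaks were -0.08 and 0.01. The 3 with the smallest p fell: MIB2, a ubiquitin ligase that lets ligands be pulled into the sending cell, at chr1:1627051-1628006 (33.1 CPM in siControl and 19.2 in siITGA7, log2 change -0.77 ± 0.12, edgeR adjusted p = 7.06e-05), and DTX3L, a ubiquitin ligase of the Deltex family, at its start chr3:122563885-122564910 (31.8 and 20.1 CPM, -0.64 ± 0.11, adjusted p = 0.000495) and in an exon at chr3:122572909-122573911 (14.0 and 7.91 CPM, -0.78 ± 0.15, adjusted p = 0.00131). All 3 kept their calls when any 1 library was left out.

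The remaining pathway calls in Cal33 fall outside the naming rule and were picked out with their values known. They belong to the 15 calls among 150 tested pathway peaks, against 9.19% of all tested peaks. Of all promoter peaks 9.93% fell, and of all intron peaks 5.19% rose. The roles below only order the list, and no role was tested as a set. Among the proteases that release the receptor, FURIN, which cuts the receptor on its way to the surface, rose at its start (0.48 ± 0.12, edgeR adjusted p = 0.00845), ADAM10 rose inside the gene (0.66 ± 0.20, adjusted p = 0.0333), and PSENEN, a subunit of γ-secretase, fell at its start (-0.48 ± 0.12, adjusted p = 0.0114). Among the corepressors, SPEN rose at 2 intron peaks (0.91 and 0.62), TLE1 at 1 intron peak (0.58), and HDAC1 fell at its start (-0.42). Peaks of the target HES5 (0.68) and the ubiquitin ligase ITCH (0.62) rose, and peaks of DTX1 (-0.53), DTX4 (-0.90) and the receptor NOTCH4 (-0.45) fell. The count of 15 became 33 without siControl replicate 3, 9 without siControl replicate 1, and 8 without siITGA7 replicate 2 or 3. In the libraries of 1 sequencing run it was 7.

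In SAS edgeR called 0 of 38 pathway peaks by nearest start, with 5 at an unadjusted p under 0.05, 0 calls by DESeq2 and 1 by limma-voom. With the peaks inside the genes 3 of 99 fell and 0 rose, against 2.99% and 4.04% of all peaks. They were an intron peak of MAML3, a Mastermind coactivator, at chr4:140048969-140050570 (10.0 CPM in siControl and 4.63 in siITGA7, log2 change -1.09 ± 0.33, edgeR adjusted p = 0.0259), an intron peak of NEURL1, a ubiquitin ligase of Notch ligands, at chr10:103504114-103504861 (19.4 and 12.0 CPM, -0.79 ± 0.23, adjusted p = 0.0175), and the start of TLE1, a Groucho corepressor, at chr9:81687169-81690849 (108 and 82.8 CPM, -0.38 ± 0.11, adjusted p = 0.0121). With DESeq2 none of the 3 was called (adjusted p = 0.193, 0.163 and 0.0863, against 9 pathway peaks at an unadjusted p under 0.05). Without SAS siITGA7 replicate 4 all 3 calls were lost (adjusted p = 0.0930, 0.192 and 0.104), and MAML3 was also lost without siControl replicate 4 or siITGA7 replicate 1 or 3 and with limma-voom (0.0765). The TLE1 call was lost with promoter and other peaks normalized apart (log2 change -0.25, adjusted p = 0.17) and after thinning (0.0919), and both TLE1 and MAML3 were lost without the SAS replicate 1 libraries (0.0638 and 0.0751). By edgeR the change differed between the lines at 2 of 194 tested pathway peaks, against 0.761% of all peaks, those of FURIN (0.73 log2 higher in Cal33, adjusted p = 0.039) and NEURL1 (1.57, adjusted p = 0.0264). DESeq2 and limma-voom called 0 of them, with 18 and 22 of the pathway peaks at an unadjusted p under 0.05.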

How the data were processed

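The authors deposited whole-number counts per peak and library for a set of peaks shared by both lines, per the file headers, and all tests were run on them. A normalized signal, also deposited, equals the count over 1 factor per library, and that factor served only as an alternative scaling. The deposited annotation gave each peak's class, nearest start and distance to it (other unit, bases). Per the submitters' processing notes, bcl2fastq 2.20.0 was among the tools; how reads were aligned, shifted and deduplicated and how peaks were called is not stated in any source read for this report, and a count is not known to be an independent molecule. No symbols are paired with the Ensembl identifiers: 19488 of 45291 were given a RefSeq symbol (GRCh38.p14) from the position of their peaks, and 266 peaks had no annotation.

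Peaks were filtered with filterByExpr, scaled by TMM and tested with edgeR 4.0.16 (quasi-likelihood, robust) in R 4.3.3, per line, with Benjamini-Hochberg adjustment over all tested peaks and a threshold of 0.05. The comparison of lines and the difference of changes came from 1 fit of 16 libraries. DESeq2 1.42.0, limma 3.58.1, other scalings and filters, thinning and left-out libraries were alternatives. The fits of siITGA7 against siControl within each line were tested on simulated counts with known changes. The labels tag the replicate number as a batch, so the block counts as a pairing, though same-numbered libraries did not deviate together (r = -0.10 to 0.01 in Cal33, -0.00 to 0.00 in SAS). Named peaks were, by rule, start peaks, called member peaks, the largest line differences, the 3 smallest interaction p and the called pathway peaks (3 where over 10). The members and lists were chosen with earlier results of these data known. The labels call replicates biological.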

Additional observations from a re-analysis of the deposited data

Results flagged for a closer look

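At named member peaks, 9 libraries lay far from the other 3 of their group on the log2 scale, of 116 groups checked, and chance flags about 1 in 20 groups. In JAG1 these were Cal33 siControl replicate 3 (6.85 CPM) and SAS siITGA7 replicate 3 (2.22 CPM) at the end peak, Cal33 siControl replicate 1 (13.0 CPM) in the intron 6476 bases inside and SAS siITGA7 replicate 4 (96.9 CPM) at the start, each the lowest. In NOTCH1 they were SAS siControl replicate 1 at the end peak (3.66 CPM) and SAS siControl and siITGA7 replicate 2 in the intron at 136528491 (4.41 and 4.69 CPM), each the lowest, and Cal33 siITGA7 replicate 4 in the intron 6265 bases inside (23.8 CPM), the highest. At the larger LFNG peak it was SAS siControl replicate 3, the highest (87.2 CPM).

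The change at the NOTCH1 intron peak 6265 bases inside differed between the lines, with a log2 change lower in Cal33 than in SAS by the test of the difference (-0.95).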

How the results depend on the processing

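Of 1212 values of 58 single-peak results under alternatives, 1079 kept direction and side of the threshold, 83 lost a call, 11 gained one and 39 turned direction, and 3 of the 38 called results turned under any alternative. The deposited library factors and the peaks added inside genes were alternatives chosen after seeing the data. Depth limits SAS most, and the causes of these shifts were not tested.

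The 11 calls over all members in Cal33 became 7 with DESeq2, after thinning, and among libraries of 1 sequencing run, and 4 to 15 with 1 library left out; by the rule the range was 1 to 4. In SAS the 0 calls became 2 by the rule and 5 over all members with no low-count filter (the HES1, HEY1 and JAG1 starts among them, adjusted p = 0.0109, 0.0141 and 0.00144), 1 with promoter and other peaks fitted apart or with the deposited factors, and 0 to 1 with 1 library left out. For the lines, requiring a mean of 50 counts left 10 and 20 calls and thinning 7 and 13. The 1 difference between lines became 0 with limma-voom, no filter or thinning, and 0 to 1 with 1 library left out. The pathway's 15 calls in Cal33 became 7 in the libraries of 1 run and 8 to 33 with 1 library left out. Its SAS calls by nearest start, 0, became 2 with classes fitted apart, 1 with limma-voom, 3 with no filter, 2 with deposited factors and 0 to 1 with 1 library left out; the 3 over all its peaks became 0 with DESeq2 or thinning, 14 with no filter, 1 with a mean of 50 counts, 6 with deposited factors and 0 to 4 with 1 library left out.

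These log2 values turned direction. At the HES1 start in Cal33 it was 0.0438 with classes fitted apart, 0.14 in the libraries of 1 run and -0.24 to 0.0022 with 1 library left out, and at the HEY1 start 0.10 in the libraries of 1 run. The JAG1 start in Cal33, at -0.0026, gave 0.0834 with total counts, 0.0068 with limma-voom, 0.031 with no filter, 0.0387 with a mean of 50 counts, 0.0237 thinned, 0.0057 with the replicate block, 0.22 in the libraries of 1 run and -0.11 to 0.0886 with 1 library left out. It gave 0.014 in SAS thinned and -0.13 between lines with a mean of 50 counts, where the MAML2 start gave -0.0303. In SAS the JAG1 intron 6476 bases inside gave -0.0734 with no filter and -0.0453 to 0.26 with 1 library left out, and the NOTCH1 intron at 136528491 gave -0.0316 with classes fitted apart, -0.15 with no filter, -0.0176 with deposited factors, -0.0491 with all 16 libraries in one fit and -0.08 to 0.26 with 1 library left out. With classes fitted apart the SAS start peaks gave 0.0992 (NOTCH1), 0.038 (JAG2) and 0.0281 (NOTCH2), and NOTCH1 gave 0.0474 with a mean of 50 counts. With 1 library left out the ranges in SAS were -0.13 to 0.0459 (NOTCH1 start), -0.41 to 0.003 (JAG2 start) and -0.30 to 0.0321 (NOTCH2 start), and -0.0194 to 0.22 for the NOTCH2 start in Cal33. Between lines the NOTCH2 start gave -0.0188 with total counts.

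The replicate block left 8 of the 11 member calls in Cal33, losing the NOTCH1 start, the NOTCH1 intron at 136528491 and the MAML2 end peak, and changed no other call of a named peak. The difference between lines at the NOTCH1 intron 6265 bases inside was -1.02 with the block (adjusted p = 0.0381). The block could not be estimated for the comparison of lines, since the blocks lie within each line.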
